A study of Zygosaccharomyces parabailii with 12 samples.

Results

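The 100 genes described here are the Zygosaccharomyces parabailii genes whose expression was furthest below control in lactic acid both during growth and after the diauxic shift. Genes of the cell wall, of the G1/S switch, of the ribosome and of translation are among them. Beside these stand malate synthase, genes matched to pyruvate decarboxylase and many genes without a shared theme. The 7 ribosomal protein genes do not stand for their class: of 75 others tested, 3 were called lower in lactic acid at 18 h and 41 at 42 h. The 100 genes were taken from the 9683 genes of the authors' normalized table. Each gene received one value per time, the log2 ratio of its mean in lactic acid to its mean in control after 1 CPM (counts scaled to a common library size) was added to each mean. The 3173 genes with both values below 0 were ranked by whichever of the 2 values lay closer to 0, and the first 100 were kept. The members were thus chosen by their measured difference between lactic acid and control, which is given for them only as a description, without a test. The change between sampling times and the library that the rule left out were not used in the choice.

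The RNA came from batch bioreactor cultures of strain ATCC60483 in Verduyn medium at pH 3, and no strain, mutation or other treatment differed between groups. The 4 groups were lactic acid at 18 h (40 g per liter, 3 libraries), control without lactic acid at 18 h (3 libraries, of which 2 were used), lactic acid at 42 h (3 libraries) and control at 42 h (3 libraries). The earlier time belongs to exponential growth and the later one follows the diauxic shift, by the labels. Triplicates were drawn from the fermentation, and no source says that they came from separate cultures, so a p-value here reflects only how far such draws differ. Of 10 genes on the list of post-diauxic markers that lay outside the 100 and were tested, 10 rose at 42 h in lactic acid and 9 rose at 42 h in control.

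Z. parabailii is a hybrid, so most of its genes occur as a homeolog pair, with an A copy from Z. bailii and a B copy from another Zygosaccharomyces species. An N suffix marks genes not assigned to either parent. A few pairs carry the same suffix on both genes, and homeolog below means the paired gene in the annotation. As background from Saccharomyces cerevisiae, a growing yeast cell spends much of its transcription on ribosomal proteins and translation factors, lays down new wall at the bud, and passes from G1 into S phase through the transcription factor Swi4 and its partners. After glucose is used up, the cell turns to ethanol and organic acids and needs the glyoxylate cycle, in which malate synthase acts. Names below are those of the closest S. cerevisiae genes in the study's annotation, and the roles are those known in S. cerevisiae. An S. cerevisiae name was available for 80 of the 100 genes, and 20 are given by their gene code and best database match.

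Library totals were 8979873 to 17565769 counts in the 11 libraries used. Control replicate 2 at 18 h held 4606 counts and was left out. Lactic acid replicate 1 at 42 h stood apart from the other 2 libraries of its group: it was the highest of the 3 for 89 of the 100 members, against 35.2% of all genes. The median ratio of its CPM to the mean of the other 2 was 1.39 over the members and 0.949 over all genes. Without it, the smaller of the 2 rule values had a median of 1.74 in place of 1.61, but only 65 of the 100 would have been chosen again, with the others falling as far down as rank 228.

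In the plot of rule values the members form the lower left corner. Their rule values ran between -3.70 and -1.43 at 18 h (median -1.93) and between -3.33 and -1.40 at 42 h (median -1.67), and for 74 of them the fall was larger at 18 h. Every member's lactic acid libraries lay below its control libraries at 18 h, as did 39.4% of all genes, and at 42 h, as did 35.2% of all genes. In edgeR's fit all 100 were at least 2-fold lower at adjusted p below 0.05 at both times, against 20.7% of all genes at 18 h and 9.9% at 42 h. Because the rule used these contrasts, nothing is read from those counts. The limit fell in a dense part of the ranking: the last 3 genes inside were N00600_A (smaller rule value 1.41), the thiamine thiazole synthase gene THI4 L02370_B (1.41) and E01720_A, matched to GAT2 (1.4040), and the first 3 outside were BUD9/BUD8 E04250_A (1.4038), PKH3 C04810_A (1.401) and MAK21 F04740_B (1.400).

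**Figure D1:**
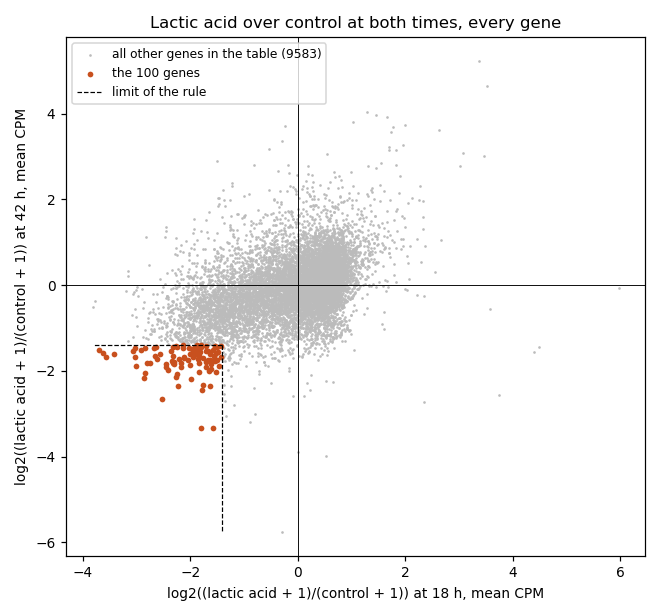
Log2 ratio of mean CPM (plus 1) in lactic acid to control at 18 h (x axis) and 42 h (y axis) for every gene of the normalized table, with the 100 members in orange and the limit of the rule dashed. The members lie at or below -1.40 on both axes.

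In the summed counts the 100 genes took 0.485 to 0.525% of each lactic acid library at 18 h, against 2.70 and 2.80% of the 2 control libraries used. At 42 h they took 0.958, 0.609 and 0.563% of the lactic acid libraries, against 3.15, 3.19 and 3.08% of the control libraries. The left-out control library at 18 h, which played no part in the choice of genes, had 105 of its 4606 counts in them, or 2.28% (95% exact binomial interval 1.87 to 2.75, counting error only), which lies between the lactic acid and the control libraries of its time and nearer to control. That library did not match its label for every member, however. It held 11 counts of the HBT1 pair, where the share in the other control libraries at 18 h predicts 0.760 and the share in the lactic acid libraries at 42 h predicts 10.9. It held 17 counts of the CCW12 genes, where lactic acid libraries at 18 h predict 2.94 and control libraries at 18 h predict 28.9. It is not used further.

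**Figure D2:**
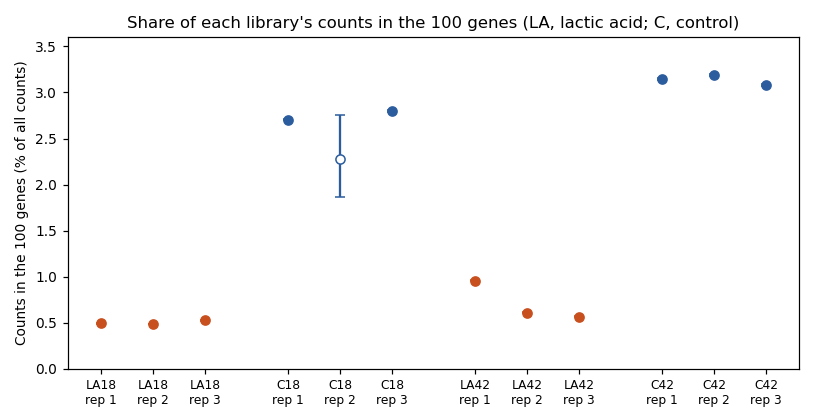
Percent of each library's counts that fell in the 100 genes, by group and replicate, with 95% exact binomial intervals (mostly smaller than the points). The open point is the left-out control library at 18 h, at 2.28%; the lactic acid libraries lie between 0.485 and 0.958%.

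The gene ranked first was MLS1 N01030_A (chromosome 14, 204480 to 206144 in the RefSeq assembly ASM198439v2 of this strain), which encodes malate synthase. At 18 h it had 6.96, 8.99 and 7.45 CPM in lactic acid, against 46.05 and 53.4 CPM in control. At 42 h it had 202, 79.8 and 47.8 CPM in lactic acid, against 673, 674 and 754 CPM in control. The lactic acid libraries were lower at each time and did not overlap with control, and lactic acid replicate 1 at 42 h was well above the other 2. In the edgeR fit the log2 fold change was -2.67 ± 0.45 (SE) at 18 h and -2.67 ± 0.40 at 42 h. DUR1,2 H03330_B encodes urea amidolyase, which lets yeast use urea as a nitrogen source. Its libraries held 14.9, 14.9 and 11.3 CPM in lactic acid, against 63.3 and 73.03 CPM in control at 18 h. They held 48.6, 31.4 and 24.7 CPM in lactic acid, against 195, 169 and 179 CPM in control at 42 h, again with no overlap. The third gene, K05020_N, is matched to pyruvate decarboxylase, the enzyme that commits pyruvate to ethanol, and had 5.704, 5.42 and 5.43 CPM in lactic acid, against 54.7 and 38.1 CPM in control at 18 h. Its values at 42 h were 82.7, 72.6 and 74.3 CPM in lactic acid, against 366, 333 and 338 CPM in control. The gene was more abundant at 42 h in both media and stayed lower in lactic acid. The gap was narrower at 42 h, with log2 fold changes of -3.07 ± 0.16 (SE) at 18 h and -2.17 ± 0.13 at 42 h.

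ECM32, a helicase linked to translation termination, entered with both genes of its pair, which carry the B suffix alike. L03360_B stood at 9.82, 11.5 and 11.1 CPM in lactic acid, against 53.4 and 57.5 CPM in control at 18 h. It stood at 12.5, 8.53 and 7.26 CPM in lactic acid, against 43.6, 42.9 and 49.3 CPM in control at 42 h. The paired gene C06730_B gave nearly the same levels, 8.95, 9.41 and 11.02 CPM in lactic acid, against 54.7 and 57.8 CPM in control at 18 h. At 42 h C06730_B gave 12.8, 9.56 and 8.86 CPM in lactic acid, against 43.3, 43.1 and 45.2 CPM in control. Both copies kept a wide gap between the media at each time, and neither was called for a change with time. TOD6/DOT6 I04870_A encodes a repressor of ribosome synthesis genes. It was measured at 48.3, 51.8 and 47.1 CPM in lactic acid, against 246 and 225 CPM in control at 18 h. The 42 h values were 91.7, 45.6 and 36.9 CPM in lactic acid, against 237, 255 and 249 CPM in control, with lactic acid replicate 1 again the highest of its group. L00580_B, matched to an aryl-alcohol dehydrogenase, had 5.04, 4.67 and 7.53 CPM in lactic acid, against 27.7 and 24.2 CPM in control at 18 h. It had 3.19, 2.25 and 2.09 CPM in lactic acid, against 13.4, 14.9 and 16.4 CPM in control at 42 h. These are low levels, and the groups still did not overlap.

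HBT1, a gene needed for the shape of polarized cells, showed the widest span of levels over the 11 libraries used of any member. The copy G05810_B had 10.1, 9.82 and 10.9 CPM in lactic acid, against 88.4 and 72.6 CPM in control at 18 h. At 42 h the same copy had 2482, 733 and 798 CPM in lactic acid, against 5626, 5739 and 5253 CPM in control. The lactic acid value of replicate 1 at 42 h was far above the other 2 and still under every control library. NUP100/NUP116 I00290_B encodes a nucleoporin that lines the nuclear pore. It had 28.5, 26.4 and 21.3 CPM in lactic acid, against 129 and 159 CPM in control at 18 h. It had 62.3, 42.4 and 36.5 CPM in lactic acid, against 215, 163 and 159.7 CPM in control at 42 h. KTI11 B07680_A acts in the modification of tRNA and of elongation factor 2, and was found at 5.44, 6.11 and 7.06 CPM in lactic acid, against 29.5 and 26.6 CPM in control at 18 h. At 42 h its values were 12.1, 7.03 and 6.87 CPM in lactic acid, against 37.7, 31.4 and 33.7 CPM in control. In all of these genes, as in every member, the highest lactic acid library stayed below the lowest control library. Among all genes 39.4% were separate in this way at 18 h and 35.2% at 42 h. The rule chose the members on the same libraries, so remarks on overlap for single genes, above and below, are a description only.

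**Figure D3:**
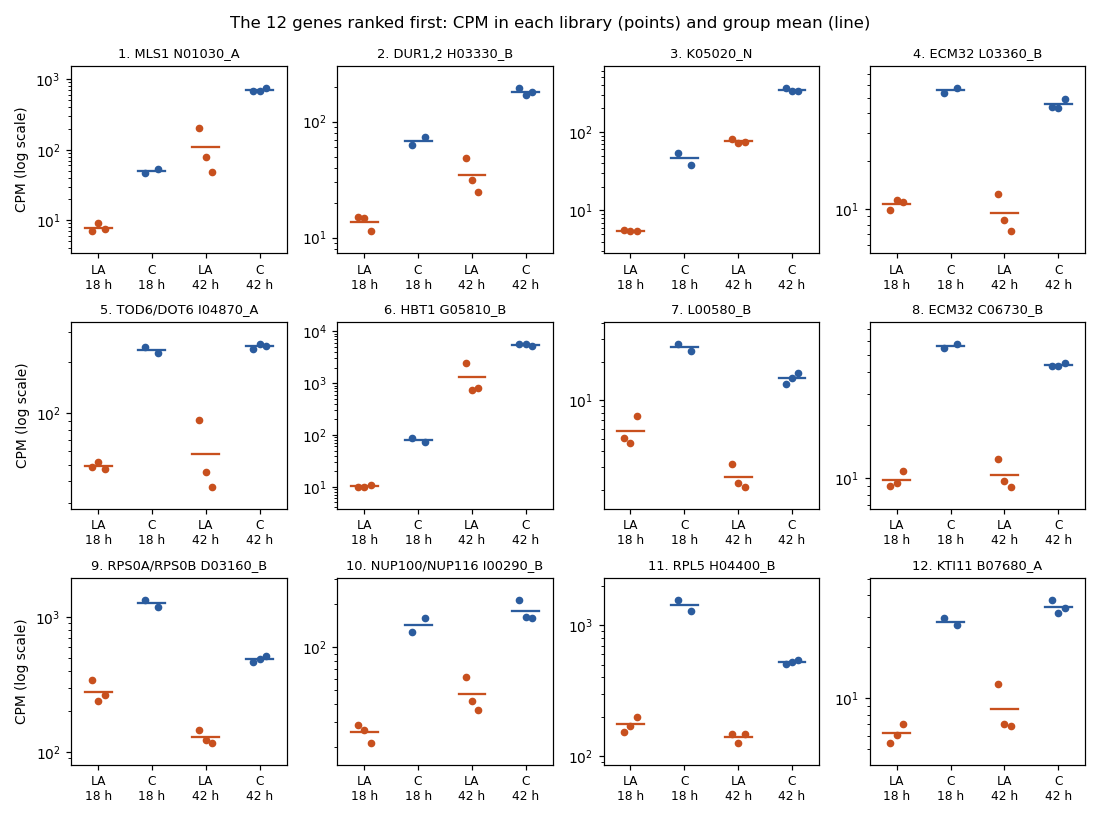
CPM in each library (points, log axis) and group mean (line) of the 12 genes ranked first, with lactic acid (LA, orange) left of control (C, blue) at 18 h and 42 h. In every panel the 3 lactic acid libraries lie below the control libraries of the same time.

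Cell wall proteins and enzymes made up 9 members, and they held the largest falls at 18 h. Their median log2 fold change was -2.19 at 18 h and -1.58 at 42 h, beside -2.05 and -1.72 for all members. The rule used both contrasts, so these medians are a description only. CCW12 is a major mannoprotein of the wall at sites of new growth. The CCW12 gene D02090_N had 303, 331 and 358 CPM in lactic acid, against 4012 and 3904 CPM in control at 18 h, the highest control level of any member at that time. It had 322, 239 and 265 CPM in lactic acid, against 800.3, 963 and 898 CPM in control at 42 h. The second CCW12 gene, F00840_N, had 250.2, 258 and 267 CPM in lactic acid, against 2899 and 2671 CPM in control at 18 h. It reached 253, 193 and 189.6 CPM in lactic acid, against 519, 725 and 698 CPM in control at 42 h. Both genes had log2 fold changes at 18 h of -3.58 ± 0.17 and -3.43 ± 0.18 (SE), beside -1.69 ± 0.15 and -1.61 ± 0.16 at 42 h. Differences between the responses at the 2 times are given here and below as values, without a test.

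The Pir proteins are linked to wall glucan through internal repeats. HSP150/PIR3 I03150_N had 117, 124 and 127 CPM in lactic acid, against 1481 and 1569 CPM in control at 18 h. Its 42 h values were 334, 268 and 223 CPM in lactic acid, against 838, 880.4 and 742 CPM in control. PIR1 O03120_N had 162, 169.8 and 186 CPM in lactic acid, against 2201 and 2324 CPM in control at 18 h, a log2 fold change of -3.71 ± 0.22, the largest fall of all members at that time. PIR1 had 532, 354 and 299.8 CPM in lactic acid, against 1171, 1199 and 1039.7 CPM in control at 42 h. Members of this family carry repeats, and reads that fit more than one copy were not counted, so the level of a single Pir gene is uncertain. Neither the Pir genes nor the CCW12 genes had a homeolog in the annotation at hand.

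PRY3, whose product is a secreted protein of the CAP family, entered with both homeologs. A07270_B had 77.1, 83.8 and 75.2 CPM in lactic acid, against 371 and 347 CPM in control at 18 h. The same copy had 52.7, 38.98 and 41.9 CPM in lactic acid, against 158, 159 and 160.1 CPM in control at 42 h. J03570_A had mean levels of 112 ± 9 CPM in lactic acid and 303 ± 7.19 CPM in control at 18 h (SD over 3 and 2 libraries). KRE1 C06860_A, which takes part in beta-1,6-glucan assembly, had 40.5, 41.1 and 42.8 CPM in lactic acid, against 149 and 168 CPM in control at 18 h. At 42 h KRE1 had 45.5, 26.3 and 28.2 CPM in lactic acid, against 90.6, 100.4 and 86.3 CPM in control. The glucanase genes EXG1/SPR1 A03310_B and ACF2 J00470_A closed the list with log2 fold changes of -1.57 and -1.51 at 18 h. D07350_N, matched to the flocculin FLO1 but without an S. cerevisiae name, had means of 7.37 ± 1.73 CPM in lactic acid and 33.1 ± 5.72 CPM in control at 42 h (SD over 3 libraries each). AFR1, which shapes the mating projection, entered with both homeologs, M04660_B and E02080_A, and the bud neck scaffold gene BNI4 with B00350_A. AFR1 M04660_B had 32.03, 33.02 and 24.5 CPM in lactic acid, against 108 and 123 CPM in control at 18 h, and its groups did not overlap. It had 20.005, 12.2 and 15.02 CPM in lactic acid, against 54.6, 48.3 and 43.1 CPM in control at 42 h. AFR1 E02080_A had 37.5, 38.7 and 28.3 CPM in lactic acid, against 123 and 139.9 CPM in control at 18 h. The groups of E02080_A did not overlap at 42 h either, with 22.9, 19.5 and 19.2 CPM in lactic acid, against 63.5, 63.3 and 55.7 CPM in control.

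Genes of G1/S and cell cycle transcription gave 10 members, with a median log2 fold change of -1.93 at 18 h and -1.77 at 42 h. STB1 encodes a partner of the G1 factor Swi6. The copy A02460_B had 4.05, 4.6 and 5.59 CPM in lactic acid, against 17.1 and 21.9 CPM in control at 18 h. At 42 h it had 4.05, 2.998 and 2.89 CPM in lactic acid, against 18.1, 16.9 and 15.03 CPM in control. The other copy, C03290_A, had 4.64, 6.32 and 7.37 CPM in lactic acid, against 20.8 and 25.96 CPM in control at 18 h and separated without overlap at 42 h too, where it had 4.57, 3.84 and 3.38 CPM in lactic acid, against 25.5, 28.1 and 24.2 CPM in control. YHP1/YOX1 encodes a homeodomain repressor of cell cycle genes. Its A copy D06090_A had 18.3, 18.5 and 15.4 CPM in lactic acid, against 62 and 68.2 CPM in control at 18 h. At 42 h the A copy had 11.2, 6.93 and 10.2 CPM in lactic acid, against 33.2, 37.4 and 36.4 CPM in control. The B copy K03660_B followed it closely, with 17.2, 18.1 and 16.5 CPM in lactic acid, against 55.9 and 62.1 CPM in control at 18 h and a log2 fold change of -1.89 ± 0.12 at 42 h.

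HCM1 N02530_A encodes a forkhead factor of S phase. It had 17.4, 17.2 and 16.5 CPM in lactic acid, against 65.8 and 72.2 CPM in control at 18 h. It had 8.62, 6.93 and 7.86 CPM in lactic acid, against 30.3, 24.8 and 26.9 CPM in control at 42 h, with both media lower at 42 h than at 18 h. ASH1, whose product represses mating-type switching in daughter cells, entered with N03310_A and F03060_B. ASH1 N03310_A had 12.9, 15.8 and 13.2 CPM in lactic acid, against 50.2 and 54.9 CPM in control at 18 h. Its 42 h values were 23.02, 12.7 and 13.4 CPM in lactic acid, against 55, 55.6 and 52.7 CPM in control, with lactic acid replicate 1 again highest. The remaining 3 were SWI4 B07830_A, the DNA-binding subunit of the G1/S factor, the G1 activator BCK2 E02220_A and PLM2/TOS4 G00870_B. The product of PLM2/TOS4 has a forkhead-associated (FHA) domain, which differs from the forkhead domain of HCM1. SWI4 averaged 24.9 ± 2.81 CPM in lactic acid and 90.1 ± 4.37 CPM in control at 18 h (SD over 3 and 2 libraries), and 23.8 ± 5.56 CPM in lactic acid and 67.3 ± 7.199 CPM in control at 42 h (SD over 3 libraries each).

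SWE1 encodes the kinase that holds back mitosis by phosphorylating Cdc28. A08100_N had 10.9, 11.8 and 8.38 CPM in lactic acid, against 35.6 and 39.6 CPM in control at 18 h. At 42 h A08100_N had 4.05, 3.28 and 3.58 CPM in lactic acid, against 22.3, 21.5 and 22.8 CPM in control. Its neighbour on chromosome 1, A08090_B, is matched to SWE1 as well and had means of 4.12 ± 0.811 CPM in lactic acid and 18.8 ± 1.87 CPM in control at 42 h (SD over 3 libraries each). The SWE1 gene J04380_A had 20.96, 22.2 and 22.9 CPM in lactic acid, against 63.3 and 77.5 CPM in control at 18 h. The 42 h values of J04380_A were 12.8, 9.65 and 8.46 CPM in lactic acid, against 54.4, 61.2 and 55.7 CPM in control. The 3 SWE1 matches had log2 fold changes of -2.60, -2.19 and -2.46 at 42 h beside -1.86, -1.70 and -1.68 at 18 h. A08100_N (1639598 to 1640659) and A08090_B (1638219 to 1639265) lie side by side and are the other set of neighbours among the members. Whether they are 2 genes or parts of 1 was not tested, so they may not count separately. NUD1 A00370_A, a spindle pole scaffold of mitotic exit, had 23.4, 26.4 and 23.6 CPM in lactic acid, against 79.5 and 84.6 CPM in control at 18 h. NUD1 had 17.2, 10.5 and 10.5 CPM in lactic acid, against 57.2, 46.9 and 47.2 CPM in control at 42 h. NET1/TOF2 J03550_A, the nucleolar anchor of the phosphatase Cdc14, had 45.7, 45.3 and 31.2 CPM in lactic acid, against 104 and 139 CPM in control at 18 h. The 42 h libraries of NET1/TOF2 also did not overlap, with 55.1, 50.97 and 44.2 CPM in lactic acid, against 213, 142 and 166 CPM in control.

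Ribosomal protein genes gave 7 members, from 4 proteins. RPS0A/RPS0B D03160_B, a protein of the small subunit, had 340.0, 237 and 264 CPM in lactic acid, against 1337 and 1185 CPM in control at 18 h. It had 147, 123 and 117 CPM in lactic acid, against 464, 489.8 and 511 CPM in control at 42 h. RPL5 binds 5S rRNA in the large subunit and entered with both homeologs. H04400_B had 154, 171 and 199 CPM in lactic acid, against 1565 and 1288 CPM in control at 18 h. At 42 h H04400_B had 147, 126 and 148 CPM in lactic acid, against 509, 527 and 540.5 CPM in control. The copy B05590_A had 184, 205 and 224 CPM in lactic acid, against 1578 and 1307 CPM in control at 18 h, and neither RPL5 copy overlapped between the media. B05590_A had 184, 149 and 171 CPM in lactic acid, against 579, 594 and 614 CPM in control at 42 h.

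RPL17B/RPL17A, also of the large subunit, entered with G04940_B and B01680_A. G04940_B had 158, 120.0 and 152 CPM in lactic acid, against 772 and 656 CPM in control at 18 h. G04940_B had 77.6, 65.9 and 70.4 CPM in lactic acid, against 232, 259 and 279 CPM in control at 42 h. The levels of B01680_A were close to these, with 169.9, 130.0 and 149 CPM in lactic acid, against 756 and 644 CPM in control at 18 h. Its 42 h values were 82.8, 67.9 and 73.5 CPM in lactic acid, against 226, 253 and 273 CPM in control. RPP2A, an acidic protein of the ribosomal stalk, entered with D01880_B and F00640_A. D01880_B had 86.2, 81.9 and 113 CPM in lactic acid, against 425 and 347 CPM in control at 18 h. D01880_B had 62.5, 53.4 and 56.1 CPM in lactic acid, against 151, 153 and 176 CPM in control at 42 h. In control all 7 were lower at 42 h than at 18 h (the tests follow the account of the gene lists). The rule sets the members' fold changes apart from those of the genes it left out, so the listed ribosomal protein genes outside the 100 are given as a description. At 18 h, of 75 tested, 3 were lower in lactic acid, and their median log2 fold change was 0.58, whereas at 42 h 41 were lower and their median was -1.06. With library totals and no TMM factors, 7 of these 75 were called higher at 18 h and 69 lower at 42 h, and both medians kept their sign. Homeologs with few base differences and genes with close copies lose reads that fit more than one place, so single levels in this family are uncertain.

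Translation factors and mRNA-binding proteins gave 8 members, the ECM32 pair among them. Their median log2 fold change was -2.69 at 18 h and -1.72 at 42 h. GCD10 I05280_A, a subunit of a tRNA methyltransferase, had 10.8, 7.07 and 9.702 CPM in lactic acid, against 47.1 and 52.3 CPM in control at 18 h. It had 10.95, 7.68 and 7.66 CPM in lactic acid, against 32.7, 32.7 and 32.8 CPM in control at 42 h. NEW1 A03820_B, an ABC protein of the translating ribosome, had 56.8, 55.6 and 59.9 CPM in lactic acid, against 357 and 364 CPM in control at 18 h. At 42 h NEW1 had 34.1, 33.4 and 31.8 CPM in lactic acid, against 109, 108 and 117 CPM in control, with the 3 lactic acid libraries close together. PAB1 is the poly(A)-binding protein. PAB1 E02190_A had 58.9, 69.1 and 75.9 CPM in lactic acid, against 592 and 527 CPM in control at 18 h. PAB1 E02190_A had 119, 76.9 and 80.2 CPM in lactic acid, against 286, 302 and 300.0 CPM in control at 42 h. EFT2/EFT1 K02580_B encodes elongation factor 2 and was among the most abundant members, with 388, 368 and 409 CPM in lactic acid, against 3409 and 3112 CPM in control at 18 h. It had 645, 516 and 510.0 CPM in lactic acid, against 1528, 1629.5 and 1721 CPM in control at 42 h, where the log2 fold change was -1.54 ± 0.14 beside -3.07 ± 0.15 at 18 h.

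Regulators of transcription and chromatin gave 4 members. GZF3/DAL80, a GATA repressor of nitrogen genes, entered with both homeologs. C06120_A had 3.78, 4.33 and 3.803 CPM in lactic acid, against 33.9 and 31.05 CPM in control at 18 h. C06120_A had 5.605, 2.904 and 2.69 CPM in lactic acid, against 14.99, 16.3 and 15.3 CPM in control at 42 h. The B copy L02770_B had 5.11, 5.905 and 5.98 CPM in lactic acid, against 38.7 and 38.6 CPM in control at 18 h. At 42 h L02770_B was likewise without overlap, with 7.67, 3.65 and 3.88 CPM in lactic acid, against 14.8, 18.2 and 19.7 CPM in control. ASF1 C06210_A, a histone chaperone, had 3.71, 2.75 and 3.803 CPM in lactic acid, against 15.5 and 20.8 CPM in control at 18 h. ASF1 had 4.05, 4.03 and 2.29 CPM in lactic acid, against 16.3, 13.1 and 10.7 CPM in control at 42 h. SIN3 B01880_A, the scaffold of a histone deacetylase complex, had 60.5, 53.97 and 50.3 CPM in lactic acid, against 188 and 204 CPM in control at 18 h, without overlap. SIN3 had 98.99, 72.05 and 61.99 CPM in lactic acid, against 256, 219 and 219.9 CPM in control at 42 h. From ribosome synthesis came the repressor TOD6/DOT6, already given, which is not itself a ribosome assembly factor, and ERB1 I00260_B, which is one. ERB1 had 45.7, 38.04 and 43.3 CPM in lactic acid, against 115 and 129 CPM in control at 18 h. The 42 h values of ERB1 were 10.6, 11.5 and 14.1 CPM in lactic acid, against 43.7, 40.1 and 45.7 CPM in control.

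In carbon metabolism, 3 members were matched to pyruvate decarboxylase. Besides K05020_N, P00130_N had 3.12, 2.47 and 2.33 CPM in lactic acid, against 12.98 and 10.5 CPM in control at 18 h. At 42 h P00130_N had 9.83, 7.68 and 9.65 CPM in lactic acid, against 102, 96.2 and 101 CPM in control, a log2 fold change of -3.46 ± 0.13. H06390_N had 6.83, 8.58 and 9.004 CPM in lactic acid, against 34.7 and 32.1 CPM in control at 18 h, and it did not overlap at 42 h either, with 66.6, 62.5 and 58.4 CPM in lactic acid, against 205, 189 and 186 CPM in control. None of the 3 had an S. cerevisiae name or a homeolog in the annotation at hand, and close copies of this family can share reads. Other genes of this family are not described here, so these 3 do not stand for the whole enzyme step. The list of glycolysis and fermentation gave the hexose transporter HXT7/HXT4 C07500_A and THI4, which makes the thiazole part of the cofactor thiamine and is not a glycolytic enzyme. HXT7/HXT4 had 390.5, 374 and 429 CPM in lactic acid, against 927 and 1307 CPM in control at 18 h. It had 377, 338 and 327 CPM in lactic acid, against 1087, 1055 and 955 CPM in control at 42 h, nearly the same as at 18 h in each medium. THI4 L02370_B had 4.31, 3.64 and 3.03 CPM in lactic acid, against 18.8 and 20.5 CPM in control at 18 h, a low level in every library. THI4 had 4.57, 2.904 and 2.99 CPM in lactic acid, against 11.5, 10.5 and 10.6 CPM in control at 42 h. ERG13 I05630_A, HMG-CoA synthase of the sterol pathway, had 74.9, 85.3 and 65.8 CPM in lactic acid, against 652 and 589 CPM in control at 18 h. Its 42 h values were 162, 122 and 108 CPM in lactic acid, against 350.0, 369 and 368 CPM in control, where the log2 fold change was -1.47 ± 0.15 beside -3.04 ± 0.17 at 18 h. MLS1 F05340_B, the second malate synthase gene, had 14.3, 13.3 and 12.3 CPM in lactic acid, against 62.3 and 59.6 CPM in control at 18 h. It had 382, 175 and 99.3 CPM in lactic acid, against 671, 682 and 777 CPM in control at 42 h, where the 3 lactic acid libraries were widely spread. The lists of protein glycosylation and of cortical actin gave 1 member each, the calnexin gene CNE1 A00350_A and the actin patch gene BBC1 C01140_A. CNE1 had 40.6, 34.7 and 34.4 CPM in lactic acid, against 123 and 121 CPM in control at 18 h. CNE1 had 98.9, 84.8 and 68.4 CPM in lactic acid, against 226, 227 and 225 CPM in control at 42 h. BBC1 had 26.3, 24.3 and 20.7 CPM in lactic acid, against 88.9 and 107 CPM in control at 18 h, also without overlap. BBC1 had 153, 85.5 and 80.2 CPM in lactic acid, against 344, 324 and 312 CPM in control at 42 h.

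Of the 100 genes, 53 were on at least 1 of the gene lists and 47 were on none. Among those 47 the median log2 fold change was -2.02 at 18 h and -1.74 at 42 h. They included genes of RNA modification and splicing (TRM7 A04140_B and DUS3 N03120_A for tRNA modification, and the tRNA splicing endonuclease gene SEN34 with both homeologs). Also on no list were transporters (FCY2 H00510_B for purines and cytosine, ATO3 D04970_A for ammonium, VHC1 D03570_A for potassium and chloride, and KAP123 H02140_B, an importin of ribosomal proteins) and the peroxiredoxin gene AHP1 D02100_B. AHP1 lies next to CCW12 D02090_N on chromosome 4, which makes 1 of 2 sets of neighbours among the members. IME2, a kinase gene of meiosis, entered with both homeologs at low levels: J00800_A averaged 2.14 ± 0.269 CPM in lactic acid and 8.69 ± 0.00928 CPM in control at 18 h (SD over 3 and 2 libraries). Its homeolog M00960_B averaged 4.05 ± 1.15 CPM in lactic acid and 13.1 ± 3.404 CPM in control. The largest fall at 42 h belonged to A07640_N, whose best match is an uncharacterized Z. bailii protein. It had 0.7296, 1.17 and 2.56 CPM in lactic acid, against 4.38 and 8.46 CPM in control at 18 h. It had 1.98, 1.78 and 2.09 CPM in lactic acid, against 28.8, 29.2 and 27.8 CPM in control at 42 h, a log2 fold change of -3.87 ± 0.31. In lactic acid this gene was low in every library, so its levels there rest on few counts. Its homeolog J03940_A, at rank 259 and outside the set, is described in the paper as the cell wall gene CWP1. The homeolog had log2 fold changes of -2.14 at 18 h and -3.62 at 42 h, also from low levels. A07640_N had no S. cerevisiae name and was therefore not counted with the cell wall list.

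The change over time was not used by the rule, although it is computed from the same libraries, and it was tested with edgeR's quasi-likelihood test adjusted over all 9683 genes. In lactic acid 27 members were higher and 14 lower at 42 h than at 18 h, where 24.9% of all genes were higher and 24.3% lower. In control 17 members were higher and 25 lower, where 15.6% of all genes were higher and 18.9% lower. The shares are thus close to those of all genes, except for the lower calls in lactic acid, and the members have no common direction in time. The median log2 change of the members over time was 0.22 in lactic acid and -0.21 in control, beside 0.00 and -0.10 for all genes. The counts moved with the scaling. With library totals and no TMM factors, 14 members were higher and 23 lower in lactic acid (all genes 19.0 and 31.4%), and 20 were higher and 14 lower in control (20.3 and 13.6%), while the median of all genes moved to -0.31 in lactic acid and 0.13 in control. Without lactic acid replicate 1 at 42 h, 16 members were higher and 18 lower in lactic acid (22.7 and 23.8% of all genes): all 14 lower calls and 16 of the 27 higher calls were kept, 11 higher calls were lost and 4 lower calls were gained.

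Of the 100 members, 15 were higher at 42 h in both media, 9 were lower in both and 41 were called in neither. Those called in control alone were 2 higher and 16 lower, and those called in lactic acid alone were 12 higher and 5 lower. The share of all genes with each of these joint calls is not at hand, so nothing is read from them. By library, 5 members were lower at 42 h in every control library and higher at 42 h in every lactic acid library, as were 5.22% of all genes. With all libraries, the largest rises were those of HBT1, MLS1 and their homeologs. For HBT1 G05810_B the log2 change of 42 h over 18 h was 7.02 ± 0.49 in lactic acid (adjusted p = 5.21e-08) and 6.11 ± 0.55 in control (adjusted p = 1.31e-06). For its homeolog B00820_A it was 6.42 ± 0.43 in lactic acid (adjusted p = 3.83e-08) and 5.75 ± 0.49 in control (adjusted p = 8.33e-07). For MLS1 N01030_A it was 3.81 ± 0.43 in lactic acid (adjusted p = 4.65e-06) and 3.81 ± 0.50 in control (adjusted p = 2.5e-05), and for F05340_B 4.04 ± 0.40 in lactic acid (adjusted p = 1.22e-06) and 3.54 ± 0.45 in control (adjusted p = 2.11e-05). Without lactic acid replicate 1 at 42 h these 4 changes in lactic acid were 6.20 for G05810_B, 5.70 for B00820_A, 3.01 for N01030_A and 3.35 for F05340_B, and K05020_N, matched to pyruvate decarboxylase, lay above both MLS1 genes with 3.71. All 4 rose in each medium with and without that library, and at both times their level in lactic acid was below control.

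Among the falls, the CCW12 genes led in control, with log2 changes of -2.16 ± 0.16 for D02090_N (adjusted p = 2.79e-07) and -2.10 ± 0.18 for F00840_N (adjusted p = 7.26e-07). In lactic acid the corresponding changes did not reach 2-fold, at -0.26 ± 0.15 for D02090_N and -0.29 ± 0.16 for F00840_N. KAP123 H02140_B fell in both media, by a log2 change of -1.60 ± 0.12 in lactic acid (adjusted p = 7.22e-08) and -2.07 ± 0.12 in control (adjusted p = 4.85e-08). NEW1 A03820_B fell in control, with -1.69 ± 0.09 (adjusted p = 3.68e-08). The largest falls in lactic acid were those of ERB1 I00260_B with -1.81 ± 0.13 (adjusted p = 5.84e-08), KAP123, SEN34 L01810_B with -1.51 ± 0.25 (adjusted p = 0.000101) and SWE1 A08100_N with -1.51 ± 0.16 (adjusted p = 1.84e-06).

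By gene list, all 7 ribosomal protein members fell at 42 h in control and 3 of the 7 fell in lactic acid, and the median log2 change of these 7 was -0.71 in lactic acid and -1.37 in control. The calls in lactic acid depended on the setting: 4 of the 7 fell with library totals and no TMM factors and 1 of the 7 under DESeq2, and the calls ended, at 0 of 7, with the length trend removed (median -0.24) and without lactic acid replicate 1 at 18 h. The 75 listed ribosomal protein genes outside the set all fell in both media (74 of them in control with library totals), with medians of -3.28 in lactic acid and -1.60 in control. Of the 9 cell wall members, 2 rose and 1 fell in lactic acid, and 4 fell in control while the other 5 were not called there. With library totals and no TMM factors, 2 fell in lactic acid, the 2 rises there were lost, and 2 fell in control. The 2 that rose were the Pir genes, and both were under the 2-fold threshold without lactic acid replicate 1 (log2 change 0.98 for HSP150/PIR3 I03150_N and 0.90 for PIR1 O03120_N). Of the 8 translation factor members, 4 fell in control, and in lactic acid their log2 changes lay between -0.80 and 0.52. With library totals, 1 of these 8 fell in each medium. Among the 10 members of G1/S transcription, 1 fell in each medium, HCM1 N02530_A, with -1.12 ± 0.12 in lactic acid (adjusted p = 2.3e-06) and -1.33 ± 0.11 in control (adjusted p = 6.94e-07). The 3 members matched to pyruvate decarboxylase were higher at 42 h in both media, with K05020_N at 3.79 ± 0.15 in lactic acid (adjusted p = 1.11e-09) and 2.90 ± 0.16 in control (adjusted p = 3.29e-08).

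**Figure D4:**
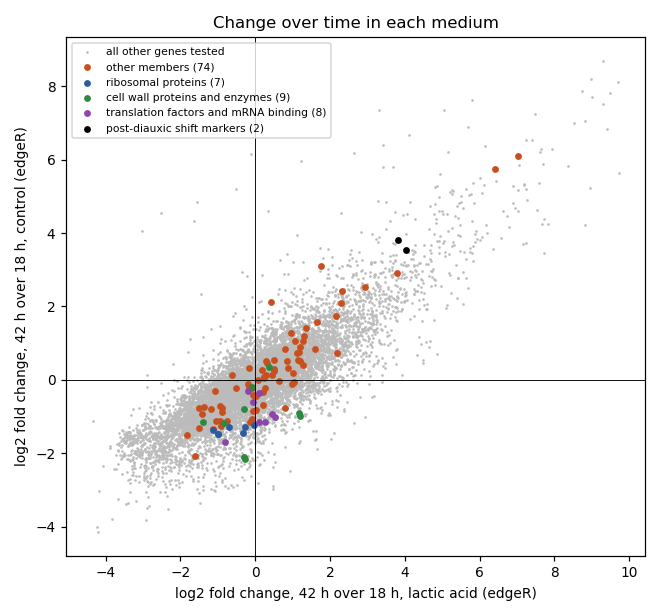
Log2 change at 42 h over 18 h in lactic acid (x axis) and in control (y axis), from the edgeR fit, for all genes tested (grey) and the members by gene list. HBT1 and its homeolog lie at the upper right, and the ribosomal protein members lie below 0 on both axes.

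A homeolog was annotated for 82 of the 100 genes. In 18 pairs both homeologs were members, which makes 36 genes, and for the other 46 genes the homeolog lay outside. Of the 18 pairs, 17 had 1 A and 1 B gene and 1, ECM32, had the B suffix on both, and 2 of the other 46 genes had a paired gene with their own suffix. The share of genes whose homeolog was also chosen was 36.0% in the first 100, 36.0% in the first 50 and 33.3% in the first 150. Of the 46 homeologs outside, whose own values the rule did use to rank them lower, 45 were below 0 at both times. In lactic acid 40 of them were lower at 18 h (all genes 20.7%), 36 at 42 h (all genes 9.9%) and 32 at both (share of all genes not at hand). Their log2 fold changes had medians of -1.54 at 18 h and -1.23 at 42 h, and 10 of them ranked between the limit and rank 200.

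Within the 18 member pairs the 2 homeologs differed by a median of 0.23 at 18 h and 0.16 at 42 h on the log2 scale, beside 0.23 and 0.25 for the 1600 homeolog pairs at hand. The choice of both copies by the same rule narrows these differences. The closest pairs were AFR1, with log2 fold changes at 18 h of -1.95 for M04660_B and -1.92 for E02080_A, and RPL17B/RPL17A, with -2.32 for G04940_B and -2.23 for B01680_A. YHP1/YOX1 (D06090_A and K03660_B) and ASH1 (N03310_A and F03060_B) came next. The widest was MLS1 at 42 h, with -2.67 for N01030_A and -1.70 for F05340_B. PRY3 at 18 h had -2.19 for A07270_B and -1.44 for J03570_A. The pair E02840_A and A01030_B had -2.50 and -1.79 at 18 h, and RPP2A had -2.04 for D01880_B and -2.66 for F00640_A. Over time the SEN34 pair differed most in control, where L01810_B had a log2 change of -1.32 and C05150_A of -0.23.

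The homeologs farthest outside the limit belonged to AHP1, ERB1, KTI11 and RPS0. AHP1 D02100_B had a log2 fold change of -1.87 ± 0.25 at 18 h, and its homeolog F00850_A had 0.34 ± 0.19, the one homeolog on the other side of 0. At 42 h the 2 copies had -1.66 and -0.80. ERB1 I00260_B had -1.52 at 18 h and its homeolog O00260_A -0.16, whereas at 42 h they had -1.84 and -1.67. KTI11 B07680_A had -2.18 at 18 h and its homeolog H02280_B -0.23. RPS0A/RPS0B D03160_B had -2.17 at 18 h and its homeolog F01880_A -0.29. In all 4 pairs the copies lay further apart at 18 h than at 42 h. The 42 h differences, member minus homeolog, were -0.86 for AHP1, -0.17 for ERB1, -0.74 for KTI11 and -0.25 for RPS0, beside -2.20 for AHP1, -1.37 for ERB1, -1.94 for KTI11 and -1.88 for RPS0 at 18 h. The rule, which took one copy and not the other, sets part of these differences, and they were not tested.

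**Figure D5:**
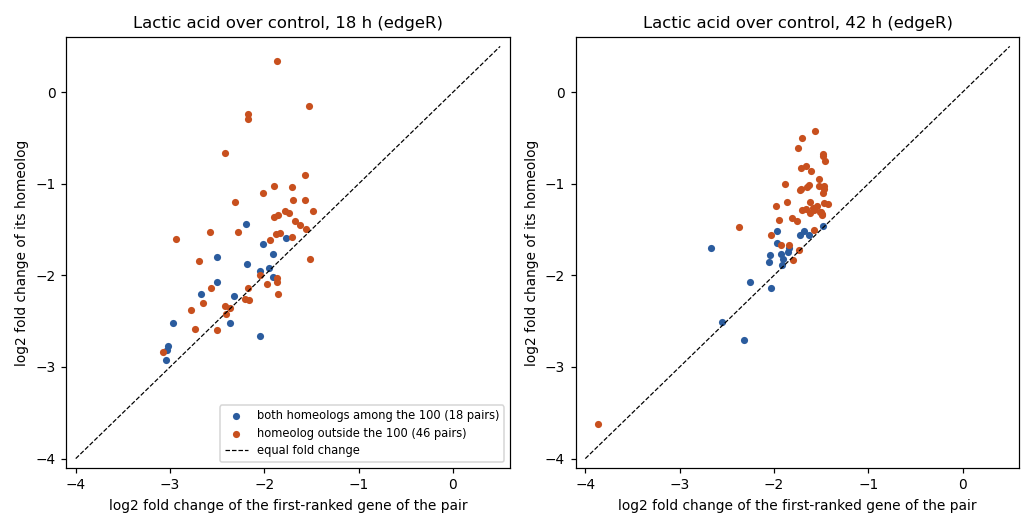
Log2 fold change in lactic acid over control (edgeR) of the higher-ranked gene of each homeolog pair (x axis) against its homeolog (y axis), at 18 h and 42 h. Blue points are the 18 pairs with both genes among the 100, and orange points the 46 pairs with the homeolog outside; the dashed line marks equal fold changes.

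Of 508 genes on the lists that were not among the 100, 152 were lower in lactic acid at 18 h and 56 at both times (share of all genes not at hand). The rule had already taken the genes that fell most at both times, so these counts describe what it left and are no comparison with the members. At 18 h, 15 of 28 bud growth and polarity genes, 16 of 30 cortical actin genes, 14 of 25 cell wall genes, 19 of 37 sterol and membrane lipid genes, 14 of 26 genes of glycolysis and fermentation and 8 of 19 genes of G1/S transcription were lower in lactic acid, beside 20.7% of all genes. At 42 h the counts were 14 of 28 for bud growth and polarity, 2 of 30 for cortical actin, 5 of 25 for cell wall (with 3 higher), 9 of 37 for sterol and membrane lipid, 4 of 26 for glycolysis and fermentation (with 2 higher) and 2 of 19 for G1/S transcription, beside 9.9% of all genes. Of 38 translation factors and mRNA-binding genes, 14 were lower at 18 h and 7 at 42 h, with 1 higher at 42 h. Of 99 ribosome synthesis genes, 15 were lower at 18 h and 24 at 42 h, with 1 higher at 42 h. Mitosis and spindle pole genes counted 11 of 46 at 18 h and 7 of 46 at 42 h. Protein glycosylation genes stayed at 4 of 31 at 18 h and 1 of 31 at 42 h, and transcription and chromatin genes at 19 of 47 (with 2 higher) at 18 h and 11 of 47 (with 4 higher) at 42 h. Of the 10 post-diauxic markers, 3 were lower and 1 higher at 18 h, and 2 were lower and 2 higher at 42 h. The 2 higher at 42 h were the ICL1 genes, which the paper places in the glyoxylate cycle among upregulated genes. Their log2 fold changes were 1.94 for B01580_A and 2.19 for G05050_B at 42 h, beside 0.10 and -0.03 at 18 h. The 2 lower at 42 h were ACS1 A00450_A (-1.05) and CTT1 B04860_N (-1.22). MLS1 thus does not stand for the glyoxylate cycle as a whole. Names were at hand for 2884 genes, which leaves every list incomplete, and the counts moved with the scaling and with removal of the length trend.

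The 100 genes were spread over all 16 chromosomes, from 1 gene on chromosome 16 to 13 on chromosome 1. The A suffix was carried by 43 members (45.9% of all genes), the B suffix by 45 (42.3%) and the N suffix by 12 (6.38%). No suffix could be read for 527 of all genes (5.44%) and 0 members. Members took their suffix from the annotation and the other genes from their gene codes, so the shares are not strictly comparable. Their coding length had a median of 1554 bp, against 1230 bp for all genes, and 45 were among the 3219 longest genes and 20 among the 3223 shortest of 9670 with a length. With a smooth trend on length taken out of every library, 92 of the 100 met the threshold at 18 h and 100 at 42 h, beside 12.9 and 7.91% of all genes. The rule used both contrasts, so these counts are a description only. Per kilobase of length, the members' median control level at 18 h was 35.2 CPM, against 28.5 CPM for all genes, and 21 were among the 967 highest genes. No member overlapped another annotated gene, and whether the reads were counted by strand is not stated.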

How the data were processed

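RNA was sequenced from rRNA-depleted libraries as 100-nt paired-end reads. Alignment by the authors used Bowtie 1.1.2 and allowed no mismatch, and reads were assigned to genes by HTSeq 0.6.0, so reads that fit more than one place were not counted; the SAMtools version and the use of strand are not given in the sources used here. The deposited full table holds raw counts. The authors' normalized table holds signal in CPM, scaled in edgeR 3.18.1 with TMM factors, and CPM recomputed here equalled it for 9683 genes. A second pair of tables for duplicated genes held none of the members and was not used here. The paper's supplement supplied names, best matches, suffixes and homeologs only, and its full annotation was at hand for 1994 genes. For the members these also came from the annotation columns of the authors' table of genes changed in lactic acid. Genes outside the set were named for the lists without that table. Without it, names were at hand for 3 of the 9 cell wall members, 4 of the 10 G1/S members and 4 of the 7 ribosomal protein members. Counts by list inside and outside the set are thus unlike. The authors' fold changes were not used.

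The counts were tested in R 4.3.3 with edgeR 4.0.16 (quasi-likelihood, two-sided, 4 groups in 1 model, Benjamini-Hochberg adjustment over all genes). Calls were made at 2-fold or more (1 on the log2 scale) with adjusted p under 0.05. Genes needed 1 CPM in 3 libraries of a condition, and all 100 members passed. Left out were 14 entries for pseudogenes and a plasmid gene, with 0.0576 to 0.344% of the counts. Replicates differed by more than counting noise. Scripts were tested on simulated data. Alternatives were DESeq2 1.42.0, limma-voom (limma 3.58.1), RLE factors, library totals without TMM, no filter on low counts, a replicate block, a length trend removed with a spline of 5 degrees of freedom, each library left out, pseudocounts of 0.1 and 10, the edgeR fold change in the rule, and the first 50 or 150 genes.

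The named genes are the 12 ranked first, up to 6 first-ranked members of each list, the 3 genes on each side of the limit, the 4 largest called changes over time in each direction and medium, and the 4 closest and 4 widest homeolog pairs and 4 farthest homeologs; A07640_N, SWI4 and the few others given with group means were picked after their values were seen. The ICL1, ACS1 and CTT1 genes outside the set and the homeolog of A07640_N were likewise named after their values were seen. The members, the rule and the gene lists were chosen with earlier results of these data known.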

Additional observations from a re-analysis of the deposited data

Results flagged for a closer look

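In 5 of the 100 members every control library was lower at 42 h than at 18 h while every lactic acid library was higher at 42 h than at 18 h, a pattern held by 5.22% of all genes. The share among the members is thus close to that of all genes, and no trait of the members is read from it. The value given for each is the log2 fold change in lactic acid over control at 42 h minus that at 18 h. The rule used both of these contrasts, and whether the media differed in their change over time was not tested. For PAB1 E02190_A this difference was 1.36, with lactic acid at 119, 76.9 and 80.2 CPM at 42 h, against 58.9, 69.1 and 75.9 CPM at 18 h, and control at 286, 302 and 300.0 CPM at 42 h, against 592 and 527 CPM at 18 h, so the separation in lactic acid was narrow. The cell wall genes HSP150/PIR3 I03150_N and PIR1 O03120_N had differences of 2.06 and 2.19, EFT2/EFT1 K02580_B of 1.52 and ERG13 I05630_A of 1.57. In lactic acid replicate 1 at 42 h was the highest library for all 5.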

How the results depend on the processing

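The choice of genes depended on the setting: of the 100, 65 were chosen again with a pseudocount of 10, 67 with library totals and no TMM factors, 74 with the length trend removed, 84 with edgeR's fold changes and 85 with a pseudocount of 0.1, and leaving out 1 library at a time kept 65 (without lactic acid replicate 1 at 42 h) to 98. All 100 members stayed lower in lactic acid at 42 h under every alternative, and at 18 h under every one except the removed length trend, which left 92 (12.9% of all genes). The rule chose the members on these contrasts in the same libraries, so nothing is read from these counts. With library totals and no TMM factors, the members higher at 42 h in lactic acid became 14 in place of 27 and those lower 23 in place of 14, those lower in control became 14 in place of 25, and the listed genes outside the set that were lower at 42 h became 229 in place of 128. With the length trend removed, 87 listed genes outside the set were lower at 18 h in place of 152, and 83 genes were in both counts. Leaving out 1 library at a time gave 16 to 32 members higher and 11 to 18 lower at 42 h in lactic acid, 16 to 17 higher and 25 to 27 lower in control, and 144 to 162 listed genes outside the set at 18 h and 126 to 156 at 42 h. The lowest of these higher counts, 16, was without lactic acid replicate 1. For a control library at 18 h this leaves 1 library, whose spread is taken to be that of the other groups. The cause of these shifts was not tested. The 16 named changes over time kept direction and threshold in all 288 refits, but their size in lactic acid moved by over 1.5 times for HBT1 and MLS1 without lactic acid replicate 1 at 42 h, as given above, and with the length trend removed for HBT1 (6.34 for G05810_B and 5.74 for B00820_A) and KAP123 H02140_B (-2.21). The replicate block changed no member count by over 1.5 times: with it 26 members were higher and 14 lower at 42 h in lactic acid, and 17 higher and 24 lower in control. Same-numbered replicates did not deviate together (correlations of -0.26 to 0.33), so the numbers were not taken to pair the samples. Members had at least 787 counts over the 11 libraries, so the precision of single low genes is limited by counting.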
